A study of Mus musculus with 14 samples.

Results

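The series holds 14 RNA samples of mouse bone marrow-derived macrophages, and 4 of them, the untreated libraries of total RNA, are described here by how much of their reads fell in introns. The cells came from FVB/Hsd mice, were infected with retrovirus carrying a short hairpin, selected with puromycin and taken on day 7 of differentiation. The libraries called scrambled 1 and scrambled 2 carry the scrambled control hairpin, and those called sh1137 and sh830 carry 1 hairpin each against Wdr82, a subunit of complexes that act on RNA polymerase II and on histone H3K4 methylation. None of the 4 received lipopolysaccharide. All were depleted of ribosomal RNA without selection for poly(A) tails and made into strand-specific libraries. Scrambled 1 and sh1137 form the intron-rich class and scrambled 2 and sh830 the intron-poor class, so each class holds 1 control and 1 knockdown library. The other 10 samples were not analysed here. The libraries were chosen by their intron share, a value of the same counts: the intron share is the sum of intron counts divided by the sum of the exon counts of genes and the intron counts, with non-gene regions left out. Differences between the classes in these counts are therefore given as a description. Adjusted p-values serve only to count genes whose class difference was large beside the modelled spread between these libraries. An exact permutation test of 2 libraries against 2 could not go below 0.33.

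Introns are copied with the rest of a gene and are removed from the precursor RNA in the nucleus, where most are soon degraded. A library of total RNA holds unspliced precursors and RNAs that never leave the nucleus beside the spliced messengers of the cytoplasm. Macrophages are resident phagocytes that depend on the growth factor receptor Csf1r, and bone marrow cultures grown in conditioned medium yield them in large numbers.

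The intron share was 40.4% in scrambled 1 and 44.2% in sh1137, and it was 14.6% in scrambled 2 and 15.2% in sh830. The Wilson interval at 95% spanned 40.4102% to 40.4336% in scrambled 1, and intervals of this kind cover counting error only. The classes lay far apart, while the control and the knockdown library of a class lay close together in the plot of intron share. Exon counts of genes ran from 34787556 in sh1137 to 43372731 in sh830. Intron counts were 27189233 in scrambled 1 and 27506915 in sh1137, against 7294679 in scrambled 2 and 7793113 in sh830. The exon totals thus differed little between the classes, and the gap came from the intron counts. Wdr82 itself, the targeted gene, had 98.0 and 148 CPM by exons (counts divided by the library total and scaled to 1e+06, with TMM factors computed over the genes) in scrambled 1 and scrambled 2, and 25.2 and 40.4 CPM in sh1137 and sh830. Both knockdown libraries were below both controls, which matches their labels, and within each hairpin group the intron-rich library was the lower.

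**Figure D1:**
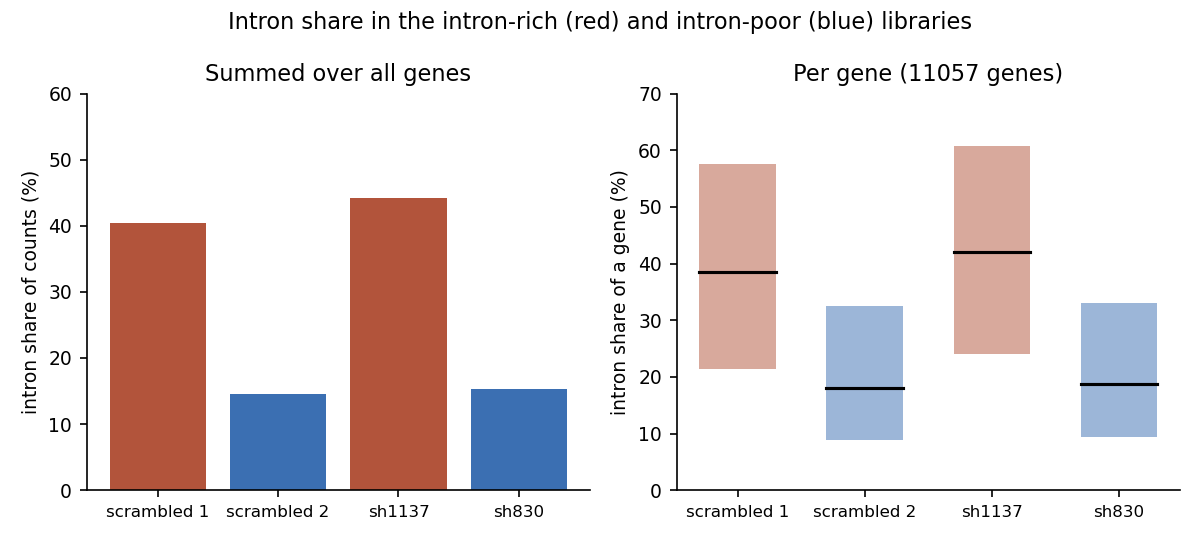
The left panel shows the intron share of all counts in percent for each library, and the right panel the median (black line) and quartiles (box) of the intron share over 11057 genes. The intron-rich libraries (red) stand at 40.4% and 44.2% and the intron-poor ones (blue) at 14.6% and 15.2%.

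The larger share was spread over most genes. Of 11057 genes with at least 100 exon and 50 intron counts in sum, 10190 (92.2%) had a higher intron share in both intron-rich libraries than in both intron-poor ones, 154 had a lower share in both, and 713 overlapped. The median share of a gene was 38.4% in scrambled 1, 18.0% in scrambled 2, 42.0% in sh1137 and 18.7% in sh830. Rcan1, which encodes an inhibitor of calcineurin, had shares of 77.1% in scrambled 1, 16.8% in scrambled 2, 67.0% in sh1137 and 12.1% in sh830. Mbnl1, a splicing regulator, had 76.4%, 22.3%, 76.9% and 22.0% in the same order. In both genes most counts were intronic in the intron-rich libraries and exonic in the other pair. Lair1, an inhibitory receptor of leukocytes, had 67.5%, 15.9%, 71.9% and 11.9%, and the transcription factor gene Stat4 had 65.2%, 10.7%, 70.8% and 15.7%. Map2k6, Nxn, Rap1gap2 and Ubash3b completed the 8 largest rises of the share among the genes ranked for naming. Each rose by at least 51.6 percentage points in both pairs.

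A small set of genes went the other way. Among 8639 genes with those minimum counts in every library, 8498 had a higher share in the intron-rich library of both pairs and 52 a lower one. Ncapd2 (chr6:125118025-125141604, mm9), a condensin subunit, had shares of 21.6% in scrambled 1, 58.9% in scrambled 2, 24.3% in sh1137 and 70.6% in sh830. An intron of Ncapd2 holds the gene of the small Cajal body RNA Scarna10. Atg16l1, an autophagy gene whose intron holds Scarna6, had 47.0%, 67.1%, 46.4% and 67.6%. In these genes the intron-poor libraries were the higher and the classes did not overlap. Paqr3, Prr33, Snhg20, Bahcc1, Angel1 and Klf2 made up the rest of the 8 largest falls among the genes ranked for naming. Klf2, a short-lived transcription factor messenger, had the smallest of them, with 3.78%, 9.52%, 5.05% and 13.3%.

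Within single genes, the intron counts were compared with the exon counts of the same libraries in 1 model with an interaction term. The median log2 difference of intron against exon counts was 1.57 over 11660 genes, with quartiles of 1.06 and 2.02. Of these genes 10073 (86.4%) passed an adjusted p of 0.05 in edgeR with introns higher in the intron-rich class and 60 (0.515%) with introns lower, which follows from how the classes were chosen. The median of this log2 difference was 1.03 in the 10% of genes with the least intron sequence, up to 3390 bases, and 2.03 in the 10% with the most. It lay between 1.52 and 1.61 in each of 10 bins by exon length.

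Intron counts outside expressed genes differed less. The 4010 genes under 0.1 exon CPM in every library hold 212 Mb of intron. Their intron counts per Mb of intron, divided by the exon counts of the library and scaled to 1e+06, were 1.57 in scrambled 1, 0.748 in scrambled 2, 2.32 in sh1137 and 1.07 in sh830. The 10784 genes of at least 1 CPM in every library had 1394, 351, 1619 and 366 on that measure. The intron-rich library was the higher in both pairs in both sets, by ratios of 2.09 and 2.16 in the scarcely expressed genes and of 3.97 and 4.42 in the expressed ones. Expressed genes held between 98.5% and 99.3% of all intron counts, so the scarcely expressed genes contributed little to the share.

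Exon counts also differed between the classes, and largely the same way in both pairs. In the fit with knockdown as a covariate, 2511 of 13817 genes (18.2%) were higher in the intron-rich class and 3472 (25.1%) lower at an adjusted p under 0.05 in edgeR. Without that covariate edgeR called 0 genes either way. At an unadjusted p under 0.05 that fit had 2004 genes higher and 2299 lower. Across genes, the log2 difference between scrambled 1 and scrambled 2 and that between sh1137 and sh830, which share no library, had a Pearson correlation of 0.784 and the same sign in 83.2% of genes. Among the 8975 genes of at least 10 CPM the correlation was 0.885. The genes are not independent of each other, and the 2 pairs were matched by their intron share. Since sh1137 and sh830 are different hairpins, class and hairpin cannot be told apart in the hairpin pair. The labels do not say whether the libraries came from separate cultures or animals, so the fits measure only the spread between these libraries.

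**Figure D2:**
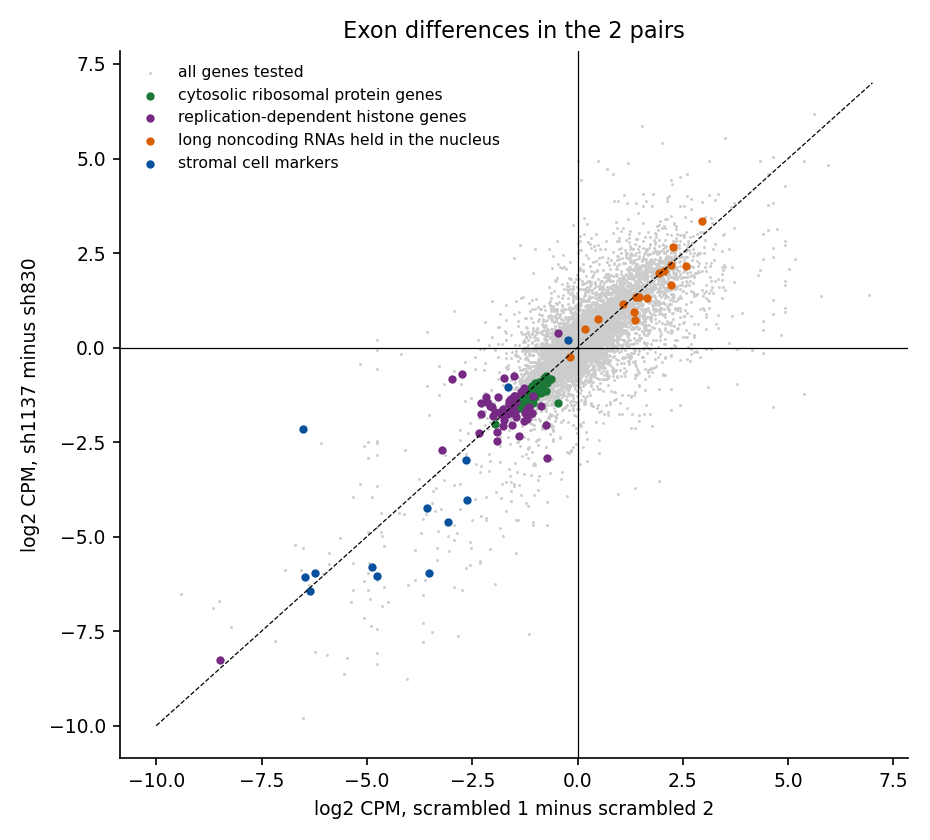
Each point is 1 of 13817 genes, with the log2 difference in exon CPM of scrambled 1 minus scrambled 2 on the horizontal axis and of sh1137 minus sh830 on the vertical axis; the dashed line marks equal differences. Ribosomal protein and histone genes lie below 0 in nearly all cases, nuclear long noncoding RNAs mostly above 0, and stromal cell markers far below 0.

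Long noncoding RNAs that stay in the nucleus were higher in the intron-rich libraries. Of 16 tested in that list, 14 passed the threshold as higher and none as lower, with a median log2 difference of 1.44 against -0.05 over all genes. Neat1 (annotated exon at chr19:5842302-5845478, mm9), the scaffold of nuclear paraspeckles, had 1299 CPM in scrambled 1, 271 in scrambled 2, 1654 in sh1137 and 262 in sh830. Its fitted log2 difference was 2.46 ± 0.13 (SE of the fit, n = 2 libraries a class), and both intron-rich libraries were well above both others. Kcnq1ot1, an antisense RNA of the imprinted Kcnq1 locus, had 642, 138, 694 and 153 CPM, a log2 difference of 2.20 ± 0.09. Malat1, an abundant RNA of nuclear speckles, had 11767, 3739, 21578 and 8709 CPM, a log2 difference of 1.48 ± 0.14. Its intron-rich libraries were again the higher ones, and the knockdown libraries exceeded the controls within each class. Xist, the RNA that coats the inactive X chromosome, had a log2 difference of 1.40 ± 0.10. Tug1 and Morrbid did not pass: Tug1 had 97.1, 109, 109 and 130 CPM, a log2 difference of -0.21 ± 0.08. Over all 301 genes annotated as long noncoding RNAs, the median was 0.67, with 114 higher and 9 lower. Of all genes tested, 18.2% were higher and 25.1% lower. Some of the 14 were of very low level, such as Meg3 with 0.287, 0.0258, 0.348 and 0.0235 CPM. Low-level genes in general had a positive median, 0.53 at 0.709 to 2.24 CPM. The part of level in the differences of long noncoding RNAs was not tested.

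MicroRNA genes had the same direction on the median. These libraries hold long RNA, so counts over a microRNA gene come mainly from its precursor transcript and do not measure the mature microRNA. Of 66 microRNA genes tested, 17 were higher in the intron-rich class and none lower, where 18.2% and 25.1% of all genes were, with a median log2 difference of 1.14. Most were of very low level, a range in which genes in general had positive medians, and 5 of the 17 reached a mean of 1 CPM. These were Mir1895, Mir142, which is specific to blood cells, Mir23a and the clustered genes Mir23b and Mir27b. Mir1895 had 60.7 CPM in scrambled 1, 18.1 in scrambled 2, 76.5 in sh1137 and 19.2 in sh830, a log2 difference of 1.87 ± 0.11. Mir142 had 22.0 CPM in scrambled 1, 6.98 in scrambled 2, 17.7 in sh1137 and 4.98 in sh830, a log2 difference of 1.74 ± 0.15. Mir27b had 4.44, 1.29, 4.63 and 1.78 CPM, and lies in an intron of Aopep on the same strand. Mature sequences of these 5 loci, 1 or both arms each, are shown to identify the products, from RefSeq (GRCm38.p6), with the seed (bases 2 to 8) in capitals.
mmu-miR-142a-5p: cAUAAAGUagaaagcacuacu
mmu-miR-142a-3p: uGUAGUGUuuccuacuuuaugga
mmu-miR-27b-3p: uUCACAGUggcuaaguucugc
mmu-miR-23a-3p: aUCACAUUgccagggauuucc
mmu-miR-23b-5p: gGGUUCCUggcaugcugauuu
mmu-miR-1895: cCCCCGAGgaggacgaggagga
No seed is shared among these 6, but other arms of these loci are not shown, so this does not compare the loci.

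Other genes with large positive differences were mostly of modest level. Insyn2b had 78.8 CPM in scrambled 1, 10.6 in scrambled 2, 113 in sh1137 and 13.6 in sh830, a log2 difference of 2.97 ± 0.10. All of its exon sequence lies inside an intron of Dock2 on the opposite strand. Tbrg3 had 56.2, 11.1, 62.3 and 8.85 CPM, and all of its sequence lies in an intron of Tcf20 on the same strand. For such genes, reads of the host intron and reads of the gene itself cannot be told apart on the same strand, nor on opposite strands, since the strand setting of the counting is not given in the sources used here. The microtubule-associated ubiquitin ligase gene Mid1 had 61.0, 10.96, 60.2 and 11.5 CPM and no such placement for 90% or more of its exons. Dnah17, Slc7a15, Mbd6, Bmpr1a and Abca12 were the others among the 10 largest of the genes ranked for naming, with log2 differences from 2.22 to 2.84. In each of them both intron-rich libraries were above both intron-poor ones.

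Most genes with higher exon counts, 2117 of 2511, overlap no intron of another gene, as do 12301 of all 13817 genes tested. Genes placed inside other genes had higher medians. The 174 genes with at least 90% of their exon sequence in an intron of an expressed gene (10 CPM or more) on the same strand had a median log2 difference of 0.57, with 51 higher and 17 lower. The 142 genes placed so on the opposite strand had a median of 1.00, with 64 higher and 23 lower. Over all genes 18.2% were higher and 25.1% lower. The 12301 genes whose exons overlap no intron of another gene had a median of -0.07. Level differed between these sets, with medians of 1.46 CPM for the same-strand genes, 5.24 for the opposite-strand genes and 25.01 for those without overlap. Over all genes the median log2 difference was 0.76 in the lowest 10% by level, 0.53 in the next 10% (0.709 to 2.24 CPM) and -0.21 in the highest 10%, and the part of level in the differences of nested genes was not tested. The non-gene regions of the deposited annotation were mostly higher too: 463 of 1068 (43.4%) were higher and 9 (0.843%) lower, with medians of 0.51 in the scrambled pair and 1.36 in the hairpin pair.

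Genes of the translation and energy machinery were lower in the intron-rich libraries. All 81 tested genes of cytosolic ribosomal proteins passed as lower, with log2 differences from -1.99 to -0.72 and a median of -1.20. Rpl41, the smallest ribosomal protein, had 269 CPM in scrambled 1, 792 in scrambled 2, 216 in sh1137 and 619 in sh830, a log2 difference of -1.54 ± 0.09. Rps27l, a relative of ribosomal protein S27, had 35.3, 137, 27.2 and 110 CPM, a log2 difference of -1.99 ± 0.09. In both genes the classes lay far apart and the control and knockdown libraries of a class close together. Of 76 nuclear-encoded genes of oxidative phosphorylation, 74 were lower and none higher, with a median of -0.97. Ndufa7, a subunit of complex I, had 17.0, 46.5, 10.8 and 31.4 CPM. Uqcr10, a subunit of complex III, had 26.03, 68.5, 22.6 and 59.9 CPM.

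Replication-dependent histone genes, whose messengers end in a stem-loop and carry no poly(A) tail, had a median of -1.69, with 53 of 56 lower and none higher. H2bc18 had 130 CPM in scrambled 1, 655 in scrambled 2, 65.0 in sh1137 and 312 in sh830, a log2 difference of -2.30 ± 0.09. H2bc23 had 0.239, 90.6, 0 and 4.13 CPM. Histone genes are near-identical copies of each other, so the counts of single members are uncertain. S and M phase genes, which share the cell cycle with histones, had a median of -0.29, with 25 of 51 lower (49.0%) and 4 higher (7.84%). Over all genes 25.1% were lower and 18.2% higher. Pcna, the sliding clamp of replication, had 390.4, 774, 321 and 574 CPM. Cenpf, a kinetochore protein of mitosis, had 186, 114, 147 and 102 CPM and was higher in the intron-rich library of each pair.

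**Figure D3:**
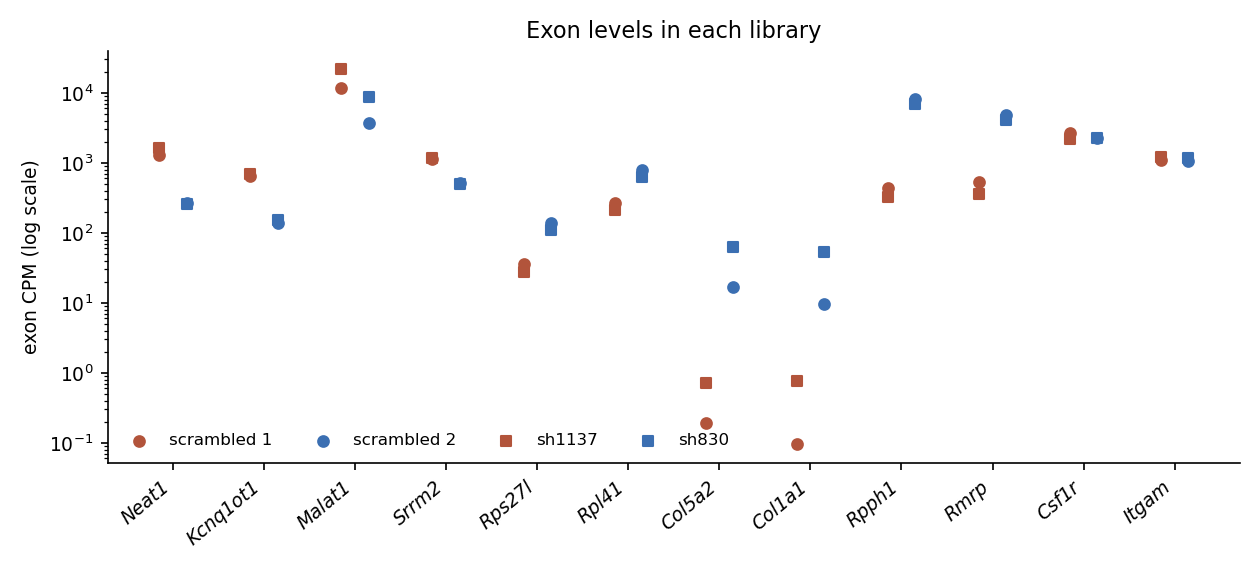
Exon CPM on a log axis for 12 genes in each library; circles are control and squares knockdown libraries, red is intron-rich and blue intron-poor. Neat1, Kcnq1ot1, Malat1 and Srrm2 are higher in red, Rps27l, Rpl41, Col5a2, Col1a1, Rpph1 and Rmrp are higher in blue, and Csf1r and Itgam lie together.

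Several short structured RNAs were much lower in the intron-rich libraries, some with genes of their own and some inside introns of other genes. Rpph1 (chr14:51427122-51427446, mm9), the RNA of ribonuclease P, had 432 CPM in scrambled 1, 8106 in scrambled 2, 329 in sh1137 and 6893 in sh830, a log2 difference of -4.31 ± 0.12. Rmrp, the RNA of the related ribonuclease MRP, had 533, 4780, 358 and 4071 CPM, a log2 difference of -3.34 ± 0.13. In both, the classes were separated by several fold and the 2 libraries of a class lay close together. The minor spliceosomal RNA gene Rnu12 had 1.17, 15.0, 0.910 and 21.3 CPM, and the vault RNA gene Vaultrc5 had 0.525, 25.1, 0.107 and 47.9 CPM. Scarna6, in an intron of Atg16l1, had 3.51, 42.8, 2.30 and 48.7 CPM. Terc did not pass, with 1.72, 1.81, 1.36 and 1.57 CPM. Over the whole list of small structured RNAs, 18 of 87 tested were lower (20.7%) and 6 higher (6.90%), with a median of 0.20. Over all genes 25.1% were lower and 18.2% higher. An entry among the 6 higher ones, Snora30, is annotated with 5143 bases of exon and 19 introns, so its 147, 50.5, 139 and 51.8 CPM are not those of a short RNA.

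Gene length ran alongside these differences. The 10% of genes with the shortest exon sequence, up to 1198 bases, had a median exon log2 difference of -0.66, and the 10% with the longest had 0.35. The medians rose at every step between, in both pairs, and Spearman's rho across the 13817 genes was 0.343. Without ribosomal protein, oxidative phosphorylation and histone genes, the gap between the end bins was 0.91 against 1.01 with them. Length goes with other features of genes, such as level and intron number, and the part of each was not tested.

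**Figure D4:**
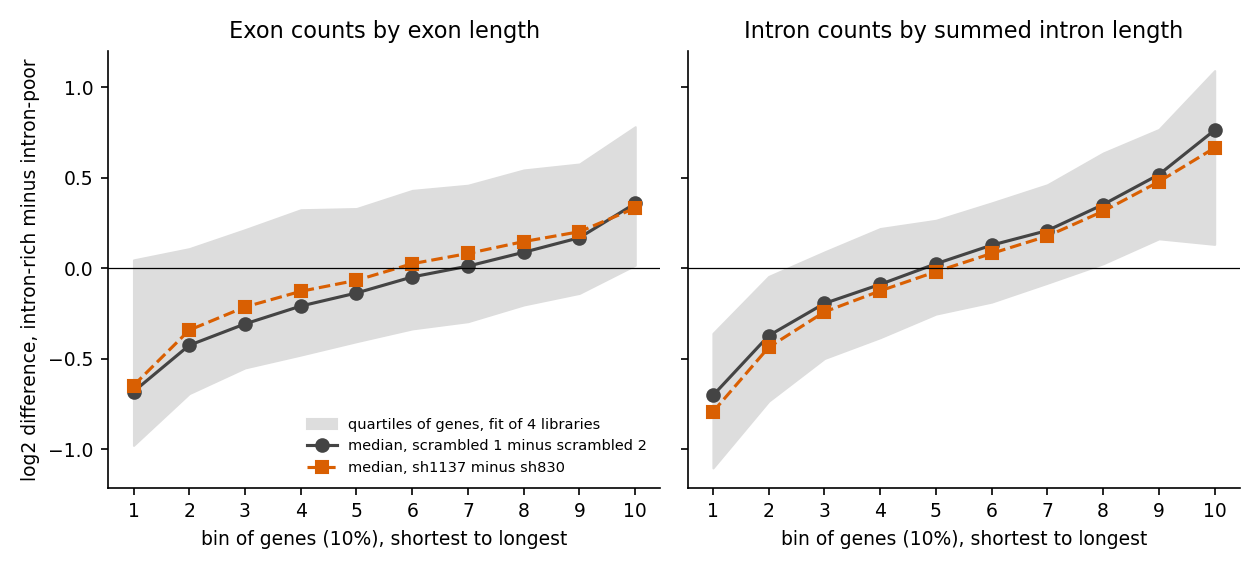
Median log2 difference, intron-rich minus intron-poor, of exon counts in 10 equal bins of genes by exon length (left) and of intron counts in 10 bins by summed intron length (right), for the scrambled pair (circles) and the hairpin pair (squares); the grey band gives the quartiles of genes in the fit of all 4 libraries. Exon medians run from -0.66 to 0.35 and intron medians from -0.74 to 0.69 in that fit.

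Within the introns, scaled by factors of their own so that the overall rise is removed, 3175 of 12319 genes (25.8%) were higher in the intron-rich class and 2066 (16.8%) lower. With the factors of the exon counts in place of these, the counts were 10684 and 74 and the median log2 difference was 1.51 in place of 0.03, so every direction given here for introns is relative to the other introns. Without the knockdown covariate the counts were 957 and 333, and with 1 library left out as well they fell to 0 and 0 without scrambled 2 or without sh830. The pairs had a Pearson correlation of 0.682 across genes, and 80.8% of genes had the same sign. The 10% of genes with the least intron sequence, up to 3466 bases, had a median log2 difference of -0.74, and the 10% with the most had 0.69. Spearman's rho was 0.537 with summed intron length, 0.419 with mean intron length and 0.331 with the number of introns. With intron counts per kb it was -0.09.

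Long genes stood out among the highest introns. Introns of Tcf7l2, a transcription factor of Wnt signalling, had 803 CPM of all intron counts in scrambled 1, 164 in scrambled 2, 788 in sh1137 and 162 in sh830, a log2 difference of 2.29 ± 0.09. Those of Rap1gap2, which regulates the small GTPase Rap1, had 62.4, 10.7, 69.0 and 13.0 CPM. Introns of Bmpr1a, a receptor of bone morphogenetic proteins, had 54.5, 2.76, 48.3 and 6.33 CPM. In each of these genes the intron-rich libraries were above the others without overlap. Trabd2b, Col4a5, Arhgef18, Cpne8 and Mid1 were the others among the 8 largest of the genes ranked for naming, with log2 differences from 2.77 to 3.40.

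Introns that carry small RNA genes were mostly lower relative to other introns, though they are few among all the lower ones. The introns of 71 genes hold an annotated small RNA gene, and they had a median log2 difference of -0.83, with 6 higher and 47 lower, against 0.04 for the other 12248 genes. Their median intron length was 3754 bases against 22326.5 for the others, and the part of length in the difference was not tested. Among ribosomal protein genes, the 21 with such an RNA had a median of -1.52 and the 57 without one -0.91, at median intron lengths of 2063 and 1920 bases. Introns of Rpsa, which hold Snora62, had 40.6 CPM in scrambled 1, 310 in scrambled 2, 26.1 in sh1137 and 340 in sh830. Introns of Ncapd2 had 98.8, 1185, 71.0 and 1328 CPM, a log2 difference of -3.90 ± 0.15. Both sets were higher in the intron-poor libraries without overlap, and Scarna10 itself, within Ncapd2, had 3.34, 58.8, 2.60 and 54.9 exon CPM. Snora62 itself, within Rpsa, did not follow its host introns: it had 0.693, 0.620, 0.616 and 0.446 exon CPM and did not pass. Introns of Snhg3, named as a host of small nucleolar RNAs, had 135, 1229, 80.3 and 2210 CPM. The exons of small nucleolar RNA hosts as a list had 6 of 20 higher and 1 lower, against 18.2% and 25.1% over all genes. Their introns had none of 16 higher and 12 lower, against 25.8% and 16.8% over all genes.

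Splicing regulators with detained introns or poison exons had 24 of 53 genes higher by exon counts (45.3%) and 6 lower (11.3%). Over all genes 18.2% were higher and 25.1% lower. The median of the list was 0.22. Relative to other introns, the introns of these genes had 8 of 52 higher and 17 lower, against 25.8% and 16.8% over all genes. The median log2 difference of intron against exon counts was 0.99 in the list and 1.57 over all genes. Srrm2, a scaffold of nuclear speckles, had 1136 CPM in scrambled 1, 508 in scrambled 2, 1186 in sh1137 and 506 in sh830, a log2 difference of 1.20 ± 0.09. Hnrnpk, an abundant RNA-binding protein, had the opposite order, with 504, 785, 426 and 639 CPM. Immediate early and short-lived messengers were mixed, with 11 of 54 higher (20.4%) and 21 lower (38.9%) and a median of -0.34, against 18.2% and 25.1% over all genes. Id3, an inhibitor of DNA binding, had 24.8, 7.65, 48.1 and 11.1 CPM, and Fos had 17.7, 7.21, 11.3 and 3.05. Atf3, a stress-induced transcription factor, had 150, 409, 120 and 311 CPM and was lower. Of 48 lysosomal and secreted protein genes, 2 were higher (4.17%) and 16 lower (33.3%), with a median of -0.24. Apoe, a carrier of lipids secreted by macrophages, had 324, 613, 273 and 568 CPM.

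**Figure D5:**
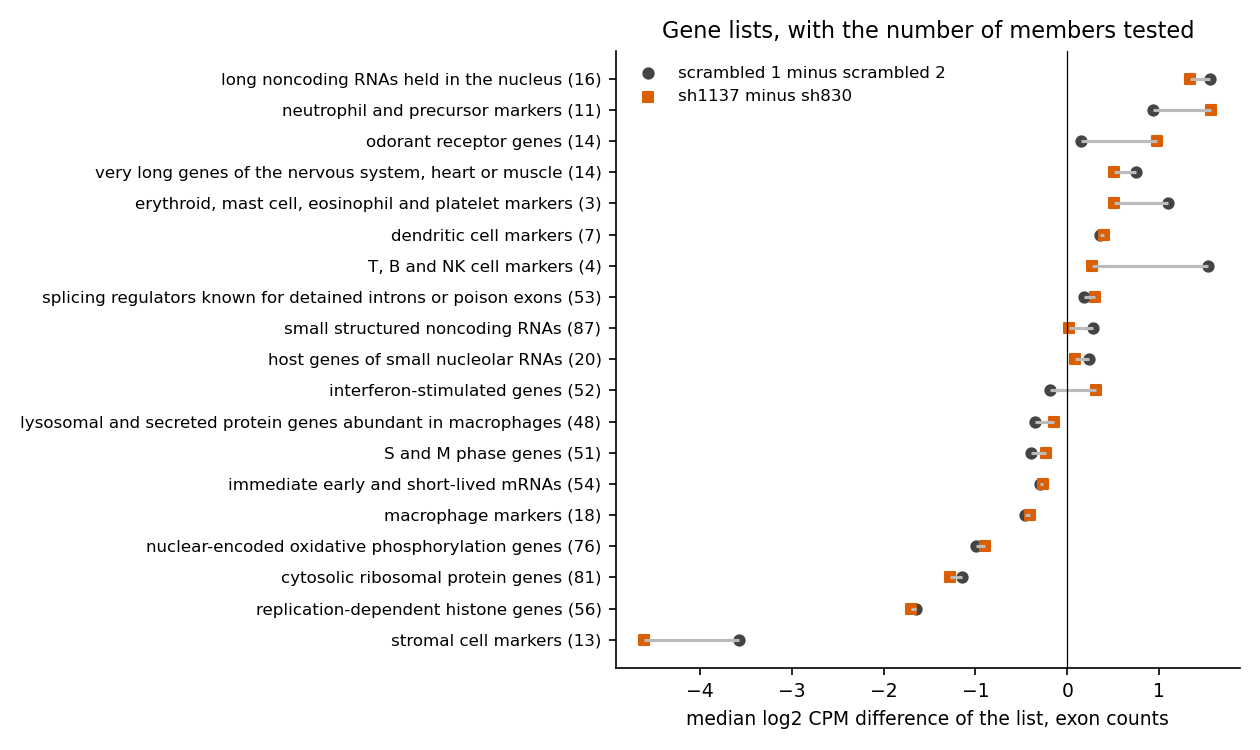
Median log2 difference in exon CPM of each gene list, with the number of members tested in brackets, for scrambled 1 minus scrambled 2 (circles) and sh1137 minus sh830 (squares). The medians of the 2 pairs have the same sign in every list but the interferon-stimulated genes, at -0.19 and 0.31.

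The macrophage markers were present in all 4 libraries, as the labelled cell type has them. Csf1r, the receptor of the macrophage growth factor, had 2630.2 CPM in scrambled 1, 2260.2 in scrambled 2, 2215 in sh1137 and 2290 in sh830. Itgam, an integrin of myeloid cells, had 1106, 1052, 1205 and 1156 CPM. Neither passed the threshold, and the classes overlapped in both. Of 18 macrophage markers, 10 were lower in the intron-rich class (55.6%) and none higher, with a median of -0.49. Over all genes 25.1% were lower and 18.2% higher. Tyrobp, a short adaptor of activating receptors, had 241, 548, 158 and 403 CPM, and C1qa, a chain of complement C1q, had 113, 185, 45.0 and 98.3.

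Stromal cell markers separated the classes most. Of 13 tested, 12 were lower in the intron-rich class and none higher, with a median of -4.14, and Pdgfrb did not pass. Col1a1 (chr11:94797584-94813170, mm9), a chain of collagen I, had 0.0955 CPM in scrambled 1, 9.54 in scrambled 2, 0.776 in sh1137 and 52.8 in sh830, a log2 difference of -6.20 ± 0.21. Col5a2, a chain of collagen V, had 0.191, 16.6, 0.723 and 63.7 CPM. The intron-poor libraries were the higher in both pairs, and within each class the knockdown library exceeded the control. The summed level of the list was 12.3 CPM in scrambled 1, 74.6 in scrambled 2, 52.4 in sh1137 and 253 in sh830. Col1a1 and Col5a2 made up little of the sum in sh1137, so the sum does not describe each member. The median log2 difference of the list was -3.57 in the scrambled pair and -4.60 in the hairpin pair. Sparc, Lox, Tnc and Fat1, which stromal cells also express, were among the 10 largest negative differences of the genes ranked for naming. In these bulk samples fewer stromal cells and less RNA per cell cannot be told apart, and the part of stromal RNA in the other differences was not tested.

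Neutrophil and precursor markers had 5 of 11 higher (45.5%) and none lower, with a median of 1.06. Over all genes 18.2% were higher and 25.1% lower. Genes of low level had positive medians in general, 0.53 at 0.709 to 2.24 CPM, and the part of level here was not tested. Mpo, the myeloperoxidase of granule precursors, had 5.42, 1.55, 5.30 and 0.305 CPM in the usual order. Of 4 markers of T, B and NK cells tested, 1, Cd3d, was higher, Pax5 had no count in any library, and of 7 dendritic cell markers none passed. The summed level of the neutrophil list was 67.0 CPM in scrambled 1, 42.0 in scrambled 2, 213 in sh1137 and 115 in sh830. By this sum the classes overlapped, with scrambled 1 below sh830. The part of these cell types in the results was not tested.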

How the data were processed

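The deposited files hold raw counts of reads per gene over exons and over introns for 4 libraries, made by the authors. Per the submitters' processing notes, TopHat 1.3.1, Cufflinks 2.1.1, Cuffdiff 2.1.1 and SICER were used with mm9; the counter and its strand setting are not given in the sources used here. Interval lengths came from the deposited mm9 annotations. Of 21761 genes, 21615 had a symbol in RefSeq tables. The 1107 non-gene regions were fitted with the genes.

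Counts were fitted in edgeR 4.0.16 (R 4.3.3) by the quasi-likelihood test with library class and knockdown as terms, filterByExpr, TMM factors computed over all genes before that filter, and Benjamini-Hochberg adjustment over all features (threshold 0.05). This leaves 1 residual degree of freedom. The SE of a log2 difference is its absolute value divided by the square root of the F statistic of that test. It rests on a spread moderated over all features and is not the spread of the libraries of a class. Pair differences are log2 of CPM after adding 0.5 counts. On simulated data with 200 genes changed 2-fold, 98.5% were recovered in the exon fit of 13926 genes and 95.0% in the intron fit of 12517. The changed genes were drawn from the better counted ones, with the same small spread between libraries set for every gene and no knockdown effect. These rates therefore do not measure the reliability of the calls in the real libraries. Alternatives were RLE factors, no filter, DESeq2 1.42.0, no covariate and each library left out. TMM factors from the filtered genes, and length gradients over fewer genes, were added after seeing the data; the TMM form run first was kept for all values reported.

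The members, gene lists and class split were chosen with earlier results of these data known. Named genes were those with the largest difference in the pair nearest to 0, at 10 CPM or more for exons (10 each way) and 5 for introns (8 each way), those with the largest changes of intron share (8 each way), and up to 2 each way from each list at 1 CPM or more. Others named from a list, and Rmrp, were chosen after their values were seen. Unnamed gene models, microRNAs, small nucleolar and Cajal body RNAs and pseudogenes were left out of the rankings, except that of small structured RNAs. The 8 or 10 largest are therefore the largest among the genes ranked.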

Additional observations from a re-analysis of the deposited data

Results flagged for a closer look

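The interferon-stimulated genes differed between the pairs: their median log2 difference in exon CPM was -0.19 for scrambled 1 over scrambled 2 and 0.31 for sh1137 over sh830. The pairs moved in opposite directions, and this difference was not tested. Of 52 genes tested, 7 were higher (13.5%) and 4 lower (7.69%) in the intron-rich class, against 18.2% and 25.1% of all genes. Oas2, an antiviral enzyme, had 119 CPM in scrambled 1, 63.2 in scrambled 2, 51.2 in sh1137 and 17.7 in sh830, higher in the intron-rich library of both pairs. Ifi27l2a had 81.2, 252, 9.74 and 44.1 CPM, lower in both.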

How the results depend on the processing

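The 4 libraries give 1 residual degree of freedom, and the counts of exon and intron calls rest on the knockdown covariate. With the covariate kept, leaving out a library leaves no residual degree of freedom, so those fits drop both and the effect of a library alone was not tested. Without the covariate, edgeR called 0 genes higher and 0 lower by exon counts (2004 and 2299 at an unadjusted p under 0.05) and 957 and 333 by intron counts. Leaving out 1 library in turn, without the covariate, gave 0 exon calls each way in every case, with 950 to 1298 genes higher and 1159 to 1901 lower at an unadjusted p under 0.05, and 0 to 721 higher and 0 to 174 lower intron calls. DESeq2 called 1813 and 2848 genes by exon counts and 2164 and 1052 by intron counts. The factors of the exon counts gave 10684 and 74 intron calls. TMM factors from the filtered genes, chosen after seeing the data, gave 2776 and 3322 exon calls and 2781 and 2134 intron calls. The intron against exon counts of calls stayed within 1.5 times under every alternative tried.

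The intron share differed by 27.4 percentage points (25.1 without the 100 genes with the most intron counts). The difference in share within a gene had a median of 16.6 points in the scrambled pair and 19.2 in the hairpin pair. The mean of these 2 medians was 17.9 (20.2 at 10 times the minimum counts). The exon length gap was 0.91 without ribosomal, oxidative phosphorylation and histone genes and 1.12 in protein-coding genes at 10 CPM or more, and the intron length gap of 1.43 was 1.40 at 10 intron CPM or more, 1.37 without those lists, and 1.46 to 1.47 in single pairs. The log2 density ratio of scarcely expressed genes was 1.09, and 1.18 for genes with 0 exon counts. List medians in single pairs ran from -0.99 to -0.90 for oxidative phosphorylation, -1.70 to -1.65 for histones, 0.014 to 0.28 for small structured RNAs, -0.29 to -0.26 for short-lived messengers, 0.51 to 0.74 for very long genes foreign to the tissue, 0.15 to 0.98 for odorant receptors, -0.47 to -0.40 for macrophage, 0.94 to 1.57 for neutrophil, 0.27 to 1.53 for lymphocyte and 0.35 to 0.40 for dendritic cell markers, and from -0.19 to 0.31, on both sides of 0, for interferon-stimulated genes.

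Single genes whose sign depended on the library left out, in fits that set knockdown libraries unevenly against controls, ran from -1.91 to 0.61 for Wdr82 exons, -0.00655 to 1.16 for Lpl, -3.93 to 0.044 for Ifi27l2a, -0.000681 to 0.14 for Itgam, -0.068 to 1.01 for Itgax, -0.54 to 1.28 for Xcr1 and -1.79 to 3.45 for Ppbp. Wdr82 introns were at 0.86 with the exon factors. No paired analysis was possible because the hairpin libraries carry no replicate number in the labels; the knockdown term already compares libraries within each hairpin group.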
